A study of Mus musculus with 6 samples.

Results

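The genes described here are 9 genes that bind, carry, make, break down or sense retinoids: Rbp4, Stra6, Lrat, Aldh1a1, Aldh1a2, Crabp1, Crabp2, Cyp26b1 and Rarg. They were found by their gene name on the array, where each had 1 probe, among 55681 probes in all. Of the 9, 8 were bright enough to be tested and stood among 25275 tested genes. Lrat was not. None of the 9 lies on chromosome 1, which holds the segment by which the strains differ.

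Retinol (vitamin A) travels in blood on the carrier RBP4 and enters cells through the membrane receptor STRA6, and LRAT stores it as retinyl ester. Retinal dehydrogenases of the ALDH1A family turn retinal into retinoic acid, the CRABP proteins bind it inside the cell, CYP26 enzymes break it down, and the nuclear receptors RAR and RXR sense it. In the testis retinoic acid drives spermatogonia to differentiate and germ cells to enter meiosis, and supports the release of sperm, with synthesis and breakdown divided among Sertoli cells, peritubular cells and germ cells.

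The samples were 6 testes, each on a one-colour array, taken 10 days after the scrotum was held once at 43 degrees C for 20 min. Of these, 3 came from wild-type C57BL/6 mice (B6) and 3 from B6.MRLc1-(D1Mit202–D1Mit403) mice (B6.MRLc1), which are C57BL/6 mice with the piece of MRL chromosome 1 between 67.97 and 81.63 cM. All were males aged 3 months, and all had been heated, so every value below compares heated testes of 2 strains and none is a response to heat. The labels do not say whether each array was a separate mouse, but the design text counts 3 of each strain. The p-values set each strain difference against the spread between arrays within a strain, which limma draws towards a value shared over all tested genes. In whole testis, fewer cells of a type and less RNA per cell cannot be told apart.

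Crabp1, a cytosolic binding protein of retinoic acid that is known from spermatogonia, was the 1 retinoid gene of the 9 that passed the test between the strains. Its signal was 1.66-fold higher in B6 than in B6.MRLc1. Cyp26b1, which breaks retinoic acid down, and Aldh1a1, which makes it, measured 1.45-fold and 1.16-fold in B6.MRLc1 relative to B6, and Stra6, the retinol receptor, measured 1.85-fold in B6 relative to B6.MRLc1. None of these other 3 genes passed. Over all tested genes 2.61% passed in either direction, 2.23% as lower and 0.384% as higher in B6.MRLc1. Of the 8 tested retinoid genes 1 was lower and 0 were higher by limma, with an unadjusted p under 0.05 for 3 lower and 2 higher genes (20.1% of all tested genes had such a p). Calls under other settings are given below for some genes. Of all tested genes those settings called 3.52% (normexp background correction), 4.76% (a variance trend on intensity), 6.34% (array weights), 1.9% (leaving out B6 array 3) and 1.26% (leaving out B6.MRLc1 array 3).

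Signals are given as log2 relative to the 75th percentile of each array, so that 0 is the level below which 75% of the spots on that array lie. Differences are B6.MRLc1 minus B6 on that log2 scale. Signals of different probes were not compared with each other, since probes differ in how strongly they bind. For 5 of the 8 genes the arrays of the strains did not overlap, 2 higher and 3 lower in B6.MRLc1, against 28.5% of all tested genes (14.3% higher and 14.2% lower). The 8 differences had a median of -0.07, beside 0.01 over all tested genes.

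**Figure D1:**
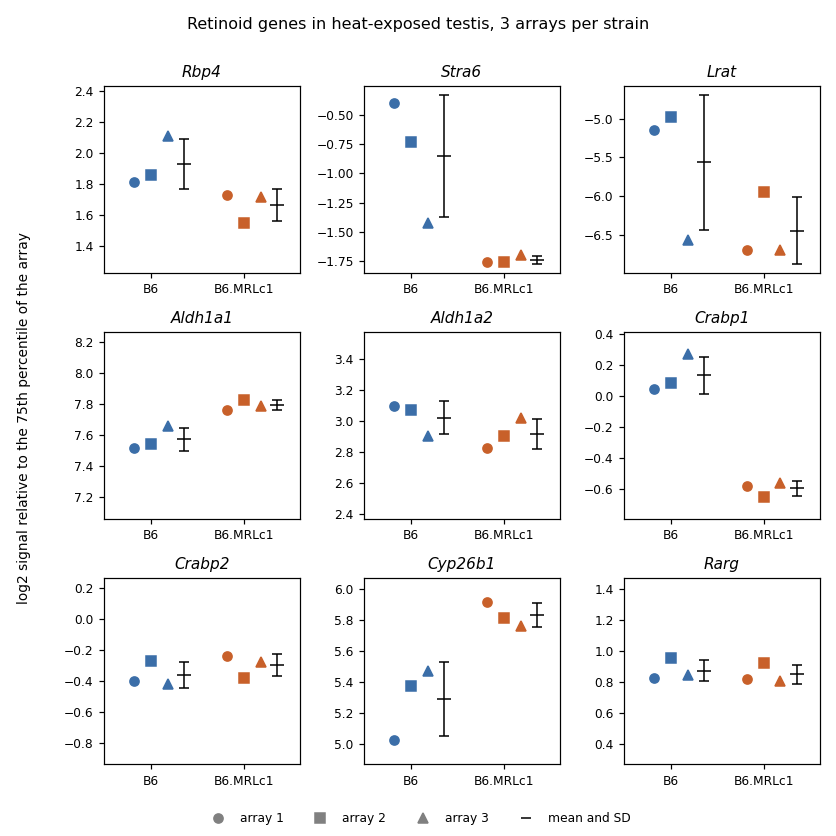
Log2 signal of the 9 retinoid genes relative to the 75th percentile of each array (vertical axes, each panel with its own range) in the B6 (blue) and B6.MRLc1 (orange) arrays, with mean and SD of 3 arrays. The strains stand apart for Crabp1, Cyp26b1, Aldh1a1, Stra6 and Rbp4 and overlap for Aldh1a2, Crabp2, Rarg and Lrat.

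Crabp1 read 0.04, 0.08 and 0.27 in B6 (arrays 1, 2 and 3, an order kept throughout) and -0.58, -0.65 and -0.56 in B6.MRLc1. All B6 arrays lay above all B6.MRLc1 arrays, and the gap between the strains was wider than the whole range within either of them. The scanner signals before scaling were 686.4, 683.9 and 698.0 intensity units in B6 and 373.7, 384.6 and 381.5 in B6.MRLc1. The means were 0.13 ± 0.12 and -0.60 ± 0.05 (SD, n = 3), and Crabp1 fell by 0.73 (SE 0.08, 95% interval -0.92 to -0.54; limma adjusted p = 0.0219). The probe maps to chromosome 9, 54616192 to 54616251 in mm9, per the array's annotation. The difference was -0.66 with normexp background correction (adjusted p = 0.00904). The size was stable when any 1 array was left out, at -0.77 to -0.66, but the call was kept only without the third array of B6 (limma adjusted p = 0.031) or of B6.MRLc1 (0.05), and was lost without B6 array 1 (0.0642), B6 array 2 (0.0653), B6.MRLc1 array 1 (0.0704) and B6.MRLc1 array 2 (0.0702), and also with dim probes kept in the fit (0.0562).

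The stretch before the Crabp1 start site is shown because Crabp1 was the gene that passed. It comes from RefSeq on build GRCm38.p6, chr9:54764498-54764747, plus strand, and holds the 250 bases before the start. Capitals mark the letters GGGCGG on either strand, the core of a GC box.
Crabp1: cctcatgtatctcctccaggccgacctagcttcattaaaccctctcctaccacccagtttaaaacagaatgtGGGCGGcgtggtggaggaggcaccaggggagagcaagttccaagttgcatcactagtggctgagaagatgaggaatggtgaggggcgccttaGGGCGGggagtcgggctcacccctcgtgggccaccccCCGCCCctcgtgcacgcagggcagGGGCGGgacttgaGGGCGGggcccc
GGGCGG was found 5 times there, and 63.6% of the bases were G or C. GGGCGG was present in 35.7% of all 32851 promoter stretches in the table, each with 250 bases before and 50 after a start site, and in 8 of the 14 stretches of the retinoid genes, which covered 8 of the 9 genes. Such a match is a description of the letters only.

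Crabp2, the second cytosolic retinoic acid binding protein, which passes retinoic acid to its receptors, showed no such difference. It read -0.40, -0.27 and -0.42 in B6 and -0.24, -0.38 and -0.28 in B6.MRLc1, and the arrays of the strains overlapped. The difference was 0.06 (SE 0.07, 95% interval -0.11 to 0.24; limma adjusted p = 0.639), and 0.036 to 0.112 when any 1 array was left out. The 95% intervals of Crabp2 and Crabp1 did not meet, and the difference between the genes was not tested.

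Because Crabp1 is known from spermatogonia, the spermatogonial marker list is given beside it. Of its 21 tested markers 0 were higher and 1, Dmrtb1, was lower in B6.MRLc1 (unadjusted p under 0.05 for 0 higher and 1 lower), with a median of 0.12. The summed signal of the list, in units of the 75th percentile, was 53.1 to 58.6 in B6 and 56.9 to 63.5 in B6.MRLc1. No listed spermatogonial marker on the array was too dim to test. The sums of the strains overlapped. Round spermatid markers were lower for 10 of 21 and higher for 0 (unadjusted p under 0.05 for 18, all lower), with a median of -1.44 and sums of 10.6 to 13.7 in B6 and 6.1 to 6.73 in B6.MRLc1. Only 12 of these 21 were well above background on all 6 arrays, so some could be tested through the B6 arrays alone. With normexp their median was -0.59. Elongating spermatid markers, given with Stra6, had a median of -1.83, and -0.81 with normexp. The part of these cell types in the Crabp1 value was not tested.

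Cyp26b1, the CYP26 enzyme of the peritubular cells, read 5.02, 5.37 and 5.47 in B6 and 5.92, 5.81 and 5.76 in B6.MRLc1. Every B6.MRLc1 array was above every B6 array, and B6 array 1 was the lowest by a clear margin. The means were 5.29 ± 0.24 and 5.83 ± 0.08 (SD, n = 3). The difference was 0.54 (SE 0.13, 95% interval 0.22 to 0.86), which did not pass (limma adjusted p = 0.0977). The difference was 0.41 without B6 array 1, and with a variance trend on intensity the gene was called (adjusted p = 0.0424). The probe lies on chromosome 6, 84521952 to 84522011 (mm9). Of the 12 tested peritubular myoid markers 0 passed in either direction (unadjusted p under 0.05 for 4, all higher), with a median of 0.14 and a summed signal of 220.8 to 221.2 in B6 and 237.3 to 248.8 in B6.MRLc1. The myoid marker sums were thus higher in B6.MRLc1, as Cyp26b1 was, by a smaller amount. The median over the list of each gene's deviation from its mean over the 6 arrays was also taken. It was -0.052, -0.042 and -0.061 in B6 and 0.169, -0.043 and 0.071 in B6.MRLc1, so by this measure the strains overlapped. The part of these cells in the Cyp26b1 value was not tested.

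Of the enzymes that make retinoic acid, Aldh1a1, the enzyme of Sertoli and Leydig cells, read 7.52, 7.54 and 7.66 in B6 and 7.76, 7.82 and 7.79 in B6.MRLc1. The strains did not overlap, yet the step was small. The difference was 0.22 (SE 0.06, 95% interval 0.07 to 0.37; limma adjusted p = 0.132), and 0.19 to 0.26 when any 1 array was left out. Its close relative Aldh1a7 gave 4.39, 4.37 and 4.42 in B6 and 4.50, 4.49 and 4.54 in B6.MRLc1, a difference of 0.12 (adjusted p = 0.264). These neighbouring genes on chromosome 19 are near copies, so the signal of either probe may hold some of the other. Leydig markers had a median of 0.09 over 15 tested genes, 0 of which passed by limma (unadjusted p under 0.05 for 4, all higher), with sums of 432.9 to 527.4 in B6 and 488.1 to 555.8 in B6.MRLc1, and their part in the Aldh1a1 value was not tested.

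Aldh1a2, the enzyme of the spermatocytes, overlapped between the strains. It read 3.1, 3.07 and 2.90 in B6 and 2.83, 2.90 and 3.02 in B6.MRLc1, a difference of -0.11 (SE 0.08, 95% interval -0.31 to 0.10; limma adjusted p = 0.517). It was -0.06 without B6.MRLc1 array 1, -0.07 without B6 array 1 and -0.17 without B6 array 3. Spermatocyte markers had a median of -0.21, and 4 of 29 (Ldhc, Rec8, Nsun7 and Adam2) passed as lower and 0 as higher (unadjusted p under 0.05 for 11 lower and 0 higher). Of the 29, 23 were well above background on all 6 arrays, and with normexp the median was -0.11.

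Stra6, through which Sertoli cells take up retinol from its carrier, varied widely among the B6 testes and hardly among the B6.MRLc1 testes. It read -0.40, -0.73 and -1.43 in B6 and -1.76, -1.76 and -1.70 in B6.MRLc1. B6 array 3 lay close to the B6.MRLc1 arrays and B6 arrays 1 and 2 far above them. The means were -0.85 ± 0.52 and -1.74 ± 0.04 (SD, n = 3). The difference was -0.89 (SE 0.26, 95% interval -1.52 to -0.25; limma adjusted p = 0.142), so that the size exceeded that of Crabp1 but did not pass. Without B6 array 3 it was -1.17 and passed (adjusted p = 0.0326), without B6 array 1 it was -0.66 (0.263), and with array weights it passed (0.0466).

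Marker levels of Sertoli cells, macrophages and elongating spermatids are given beside Stra6. The scores of the strains overlapped for Sertoli cells and macrophages and stood apart for elongating spermatids. The Sertoli list had a median of 0.09 over 28 tested genes, none of which passed (unadjusted p under 0.05 for 4 higher and 1 lower), and a summed signal of 1661 to 1943 in B6 and 1730 to 1834 in B6.MRLc1. Marker scores, the median over a list of each gene's deviation from its own mean over the 6 arrays, were 0.36, 0.14 and -0.30 for macrophages in B6 and -0.10, -0.06 and -0.05 in B6.MRLc1. For elongating spermatids they were 1.59, 0.76 and 0.38 in B6 and -1.11, -1.53 and -0.22 in B6.MRLc1. On B6 array 1, where Stra6 was highest, the macrophage and elongating spermatid scores were highest too. Other lists also scored highest there, such as endothelium (0.12) and Leydig cells (0.13). The Sertoli score was the lowest of the 6 arrays there (-0.15), as were the spermatogonial (-0.11) and adipocyte (-1.01) scores. Of the 14 endothelial markers 0 passed (unadjusted p under 0.05 for 4, all lower), with sums of 49.7 to 68.3 in B6 and 44.0 to 45.8 in B6.MRLc1. Of the 17 macrophage markers 0 passed (unadjusted p under 0.05 for 1), with sums of 104.6 to 151.1 in B6 and 123.4 to 124.7 in B6.MRLc1. Of the 22 elongating spermatid markers 4 (Odf2, Odf4, Cylc2 and Tekt4) passed as lower and 0 as higher (unadjusted p under 0.05 for 21, all lower), with sums of 22.2 to 55.1 in B6 and 6.79 to 12.3 in B6.MRLc1. Only 14 of the 22 were well above background on all 6 arrays, so some could be tested through the B6 arrays alone. The part of these cell types in the Stra6 value was not tested.

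**Figure D2:**
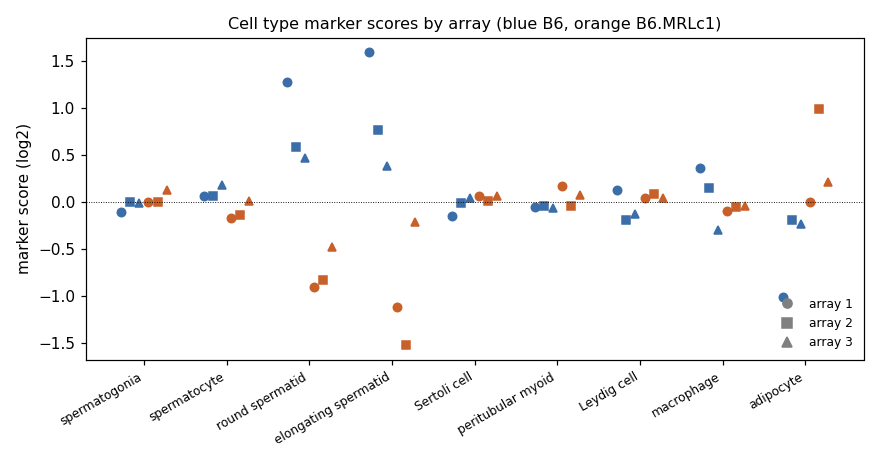
Score of 9 cell type marker lists (vertical axis, log2: the median over the list of each gene's signal minus its mean over all 6 arrays) on each array, with B6 in blue and B6.MRLc1 in orange. The spermatid scores separate the strains, with B6 array 1 at 1.28 for round and 1.59 for elongating spermatids, whereas the spermatogonial and Sertoli scores stay between -0.15 and 0.13. Only 12 of 21 round and 14 of 22 elongating spermatid markers were well above background on all 6 arrays. Some could thus be tested through the B6 arrays alone, which favours such a separation.

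Rbp4, the blood carrier of retinol, read 1.81, 1.85 and 2.11 in B6 and 1.73, 1.55 and 1.72 in B6.MRLc1. The lowest B6 array was only just above the highest B6.MRLc1 array. The difference was -0.26 (SE 0.10, 95% interval -0.51 to -0.01; limma adjusted p = 0.238). It was -0.17 without B6 array 3. Fat cells are known to make Rbp4. The adipocyte markers had a median of 0.87 over 11 tested genes, 1 higher (Pparg) and 0 lower (unadjusted p under 0.05 for 6, all higher), and sums of 22.6 to 26.3 in B6 and 26.1 to 32.6 in B6.MRLc1, and their part in the Rbp4 value was not tested.

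Lrat, the enzyme that stores retinol as ester, was near background. Of the 3 B6 arrays, 2 showed it well above background, and of the 3 B6.MRLc1 arrays 0 did. The scanner signals were 18.7, 20.5 and 6.11 in B6 and 5.38, 9.75 and 5.40 in B6.MRLc1. The B6 mean of -5.57 lay below the lowest level that could be told from background on the B6.MRLc1 arrays, -4.94 on average, so no fold is given.

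Rarg, the retinoic acid receptor of the differentiating spermatogonia, was the most even of the 8 genes between the strains. It read 0.83, 0.95 and 0.84 in B6 and 0.82, 0.92 and 0.81 in B6.MRLc1, with both strains spanning nearly the same range. The difference was -0.03 (SE 0.07, 95% interval -0.19 to 0.14; limma adjusted p = 0.854), and it was 0.015 without B6 array 2, so no direction is given.

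**Figure D3:**
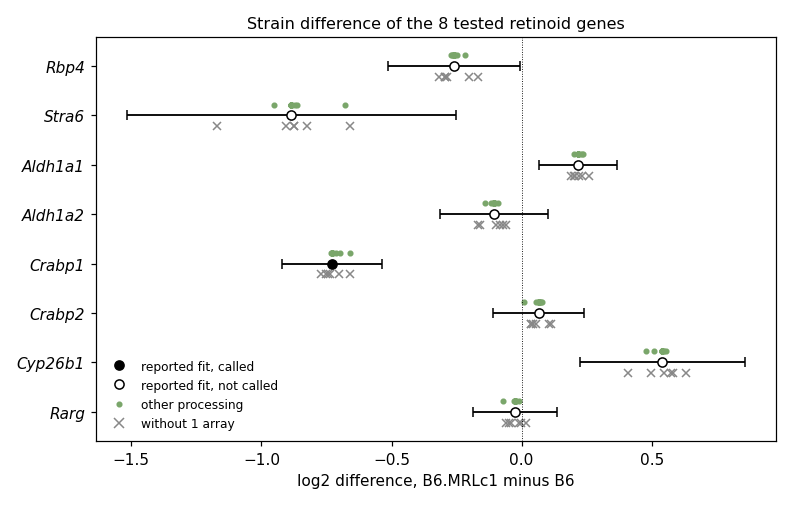
Log2 difference between the strains, B6.MRLc1 minus B6 (horizontal axis), for the 8 tested retinoid genes, with the 95% interval of the limma fit (black), the values under the other processing choices (green) and those with 1 array left out (grey crosses). Crabp1 alone was called, at -0.73, and the values of Stra6 spread most, from -1.17 to -0.66.

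Beyond the 9 genes, 62 other tested genes of retinoid transport, metabolism, sensing and response were read from the same fit. Rec8 alone passed, and 0 passed as higher by limma (unadjusted p under 0.05 for 6 higher and 3 lower genes, against 20.1% of all tested genes in either direction). The median over the 62 was -0.03. The strains did not overlap for 20 of the 62, 12 higher and 8 lower in B6.MRLc1, against 28.5% of all tested genes (14.3% higher and 14.2% lower). Rec8, a meiotic cohesin gene that retinoic acid turns on in germ cells, read 2.16, 2.24 and 2.26 in B6 and 1.71, 1.72 and 1.64 in B6.MRLc1. All B6 arrays lay above all B6.MRLc1 arrays with little spread in either. It fell by 0.53 (SE 0.06; limma adjusted p = 0.0228), and by 0.52 with normexp. The call was kept without B6 array 3 (0.046) and lost without each of the other 5 arrays in turn (limma adjusted p from 0.0558 to 0.0814) and with dim probes kept (0.0602). Rec8 is also a member of the spermatocyte marker list, of which 4 of 29 passed as lower.

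Among the receptors and cofactors 13 genes were tested and 0 passed by limma (unadjusted p under 0.05 for 2 higher and 1 lower). Rarb, a retinoic acid receptor whose own gene is a classical target of retinoic acid, read -2.99, -3.32 and -3.63 in B6 and -4.07, -4.26 and -4.30 in B6.MRLc1. The arrays did not overlap, and B6 array 3 was the B6 array nearest to B6.MRLc1, as for Stra6. The difference was -0.90 (SE 0.17, 95% interval -1.32 to -0.48; limma adjusted p = 0.0604). It was called without B6 array 3 (-1.05; adjusted p = 0.046), with the intensity trend (0.047) and with array weights (0.0233). The signals were dim, 46.9 to 83.9 intensity units in B6 and 28.6 to 33.2 in B6.MRLc1, and with normexp, which draws dim values together, the difference was -0.36. Of the other 2 Rarb probes, 1 was well above background on 1 B6 array and the other on none. The coactivator genes Med1 and Ncoa1 measured 0.21 (adjusted p = 0.122) and 0.26 (0.154). All 3 Ncoa1 probes read 0.26 to 0.30, whereas the other 3 Med1 probes read -0.05 to 0.03.

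The response elements of Rarb and Cyp26a1, a breakdown enzyme that retinoic acid induces, are shown as the 2 pathway promoters with a retinoic acid response element of the DR5 type. The search took 4 receptor motifs, namely AGGTCA or AGTTCA and likewise GGGTCA or GGTTCA, with any pair of them in the same direction and 5 bases between them, on both strands. Sequences are from RefSeq on GRCm38.p6, chr14:16575477-16575556 on the minus strand for Rarb and chr19:37697728-37697807 on the plus strand for Cyp26a1. Each ends at the last base before the start site, and capitals mark the element.
Rarb: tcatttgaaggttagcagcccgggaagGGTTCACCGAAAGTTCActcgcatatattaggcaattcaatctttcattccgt
Cyp26a1: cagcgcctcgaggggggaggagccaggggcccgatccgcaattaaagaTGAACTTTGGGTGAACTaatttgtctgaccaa
The element began 53 bases before the start of Rarb, and in Cyp26a1 32 bases before it on the opposite strand. Such an element was present in 0.0974% of all promoter stretches and in 0 of the 14 stretches of the retinoid genes, which says only that these letters are not in those windows. A single one of these motifs was present in 43.7% of all stretches and in 4 of these 14. Cyp26a1 itself measured 0.05 (SE 0.26, 95% interval -0.59 to 0.70; limma adjusted p = 0.925), and neither it nor Rarb passed.

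Among the genes of retinol uptake, binding and storage 13 were tested and 0 passed by limma (unadjusted p under 0.05 for 2 higher and 1 lower). Cd36, a fatty acid and lipid receptor that fat cells and macrophages also use, read 0.58, 0.30 and 1.02 in B6 and 1.34, 1.21 and 1.47 in B6.MRLc1, a difference of 0.71 (limma adjusted p = 0.126). Lpl, lipoprotein lipase, measured 0.44 (adjusted p = 0.188) and its other probe 0.43. The adipocyte marker sums given above reached higher in B6.MRLc1, but the sums of the strains overlapped. The adipocyte score was lowest on B6 array 1 (-1.01), where Cd36 was not the lowest. It was highest on B6.MRLc1 array 2 (0.99), where Cd36 was the lowest of its strain and Lpl the highest. The part of fat cells in these values was not tested. Ttr, which encodes the partner of RBP4 in blood, measured -0.62 (adjusted p = 0.0995) at dim signals of 21.3 to 48.5 intensity units, and -0.11 with normexp.

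The 20 tested retinol and retinal dehydrogenases were the narrowest of these lists apart from the 4 other breakdown genes, with differences of -0.29 to 0.21. Of the 20, 0 passed by limma (unadjusted p under 0.05 for 1, which was higher). The 3 with the smallest p were Rdh14 at 0.16 (adjusted p = 0.212), Aldh1a7 as given above, and Adh4 at -0.12 (0.371), which was -0.07 without B6 array 2. Of the 4 breakdown genes 0 passed by limma (unadjusted p under 0.05 for 0), and Cyp1b1 measured -0.16, Cyp3a11 -0.14 and Cyp3a13 0.15. Cyp3a11 was 0.093 with normexp, so no direction is given, and Cyp3a13 gave 0.04 and 0.27 when B6 array 1 or 3 was left out and 0.09 when B6.MRLc1 array 1 was. Of the 15 tested retinoic acid targets Rec8 passed as lower and 0 as higher (unadjusted p under 0.05 for 1 higher and 2 lower). Rarres1, a retinoid-induced gene, measured 0.32 (adjusted p = 0.244), and 0.18 without B6.MRLc1 array 2.

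Stra8, Rara and Rdh10 were picked for their roles after their values were seen. Stra8, the gatekeeper of meiosis that retinoic acid induces, measured -0.06 (SE 0.12; 95% interval -0.35 to 0.24). Rara, the receptor of Sertoli cells, measured 0.19 (SE 0.09; -0.03 to 0.41). Rdh10, which makes retinal from retinol, measured -0.06 (SE 0.16; -0.45 to 0.34). For each the strains overlapped, and limma adjusted p was 0.817, 0.298 and 0.873. The interval of none of these 3 genes reached the -0.73 of Crabp1. As picked genes they do not stand for the rest of the pathway. Kit, in the same target list as Stra8, measured 0.47 (95% interval -0.04 to 0.98; limma adjusted p = 0.276). Its strains did not overlap, as for 28.5% of all tested genes.

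Rxrg, a retinoid X receptor, lies on chromosome 1 at 169569496 to 169569555 (mm9) towards the telomeric end that holds the MRL segment, and was kept apart for that reason. The bounds of the segment, given in cM, were not set against base positions here, so whether Rxrg lies inside it is not stated. Its tested probe measured -0.07 (limma adjusted p = 0.742). A dimmer probe measured 0.52 (adjusted p over probes 0.286), so the Rxrg probes disagreed in sign and no direction is given.

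**Figure D4:**
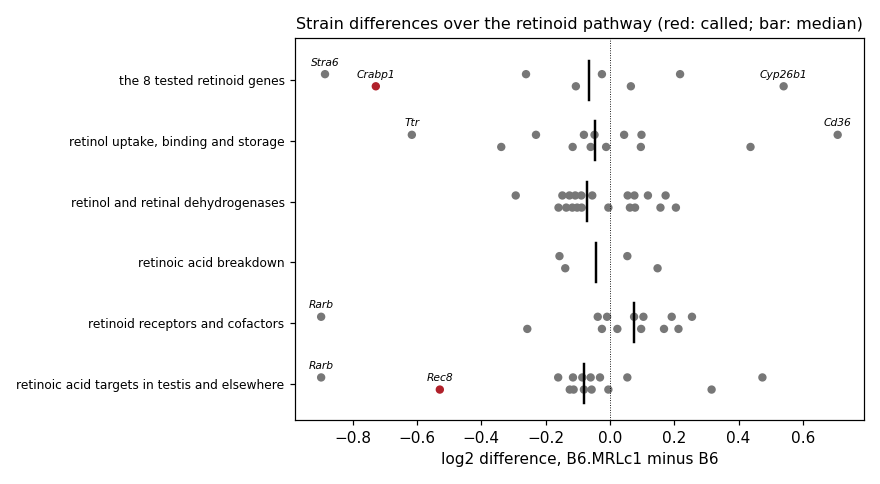
Log2 difference between the strains, B6.MRLc1 minus B6 (horizontal axis), for each tested gene of the 8 retinoid genes and of 5 lists of other retinoid pathway genes, with the median of each list as a black bar and called genes in red. Crabp1 and Rec8 are the called genes, and the list medians lie between -0.08 and 0.08.

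**Figure D5:**
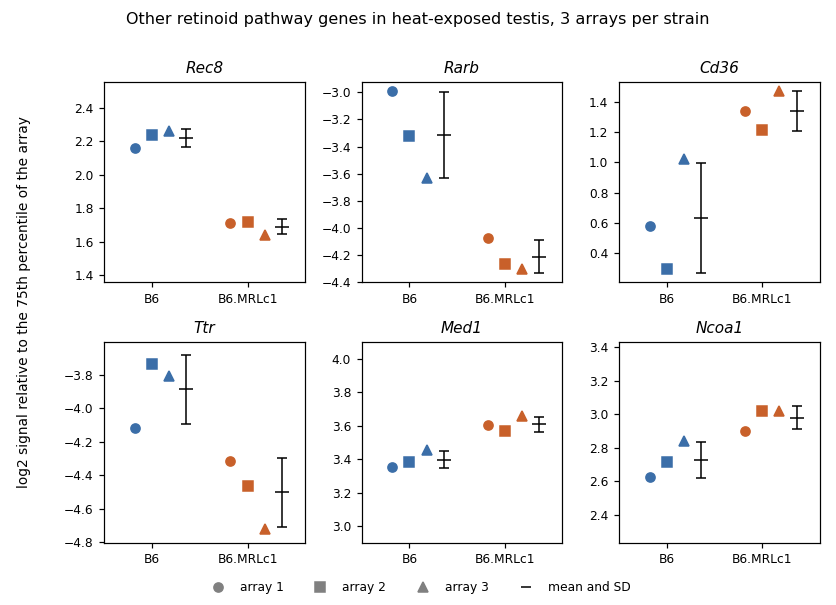
Log2 signal relative to the 75th percentile of each array (vertical axes, each panel with its own range) for 6 other retinoid pathway genes in the B6 (blue) and B6.MRLc1 (orange) arrays, with mean and SD of 3 arrays. The arrays of the strains do not overlap for any of the 6, and Rec8 alone was called. The 6 were taken from the genes with the smallest p of their lists, which favours genes without overlap. Over all tested genes 28.5% did not overlap. The other 3 Med1 probes, not drawn, did overlap.

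The genes whose signal followed each retinoid gene most closely over the 6 arrays were searched among 22048 other genes well above background on all arrays. For Crabp1 they were Tmem179 (r = 0.995), E2f7 (0.994) and Znhit3 (0.994), of which Tmem179 and E2f7 were also called, at -1.02 and -0.46. Over all tested genes 2.61% were called. Genes picked for following Crabp1 share its split between the strains, so these calls are no further result. For Stra6 they were Ccna2, Ankrd33b and Fam78a (r = 0.999, 0.998 and 0.998), for Cyp26b1 AW209491 and Dpf1 (0.999 and 0.997), and for Aldh1a1 Ube2w, Gm10389 and Ces1d (0.999, 0.997 and 0.996). Reep4 followed Rbp4 (0.999), Saa3 followed Aldh1a2 (0.994), Sh3bp4 followed Crabp2 (0.994) and Arhgef16 followed Rarg (0.979). These correlations describe 6 arrays on 1 slide in 2 strains. Above 0.95, 410 genes correlated with Cyp26b1, 388 with Aldh1a1, 335 with Stra6, 247 with Crabp1, 68 with Rbp4, 35 with Aldh1a2, 14 with Rarg and 9 with Crabp2.

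Of the markers on the array, 28 of 29 Sertoli, 15 of 15 Leydig and 29 of 30 spermatocyte markers were bright enough to be tested. Of the 19 markers of epididymis and rete testis 12 were not. Over all genes 25275 were tested, against 35019 with no filter on dim probes. Adipocyte (11 of 12), macrophage (17 of 17) and endothelial markers (14 of 14) were bright enough too, so these counts do not by themselves identify the tissue. Spots well above background made up 68.6% to 69.0% of an array in B6 and 58.0% to 64.7% in B6.MRLc1, and no spot was saturated. The B6 arrays lay in row 1 of the slide and the B6.MRLc1 arrays in row 2, so row and strain cannot be told apart for any value above.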

How the data were processed

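RNA of 6 heated testes was measured. Per the labels' protocols, 0.1 ug of total RNA was labelled with Cy3 and hybridised to one-colour Agilent arrays. The authors deposited a scanner table per array. Its spot intensity had been corrected for background and spatial trend and replaced by a surrogate near background, per the file headers, with each array still on its own scale. Flags for outlier, saturated and bright spots came with it. Feature Extraction is given as version 10.7.3.1 in the headers and as 9.5.3 in the submitters' processing notes. The deposited series table holds log2 values of unstated making: for probes with no gap, at least 99.9% matched the scaled log2 signal minus the probe's median to 0.05. Its column medians were -0.00297, -0.00405 and 0.0144 in B6 and 0.00474, 0.00986 and 0.0161 in B6.MRLc1, and how the authors scaled them stays unknown.

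After removal of control and outlier-flagged spots, signals were divided by the array's 75th percentile (558.0 to 666.4 intensity units) and put on the log2 scale. A probe was kept if 4 or more arrays had a value and on 3 or more of them over 0.5 of its spots were well above background (36626 probes), and the brightest probe stood for a gene. The strain difference was fitted by limma 3.58.1 under R 4.3.3 (lmFit, then eBayes), adjusted by Benjamini-Hochberg over 25275 genes and called under 0.05. The script was tested on simulated data. Gene names came from RefSeq accessions through a GRCm38.p6 table for 27235 probes, from a symbol in that table for 3581 and from the file alone for 24865. Positions are those of the array annotation, mm9 (NCBI37) per the file headers. Exons were not analysed here. The members, gene lists and naming rule were chosen with earlier results of these data known. The rule named all 9 members and, of the other pathway genes, each called gene and the 3 with the smallest p per list. Some genes that could have been named are not reported here. The 18 alternatives changed background correction, scaling, value source, filter, floor, probe choice, flagged spots, variance model, block or left out 1 array.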

Additional observations from a re-analysis of the deposited data

How the results depend on the processing

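Over all genes 660 were called. The count was 64 without the filter on dim probes, 1204 with an intensity trend, 1602 with array weights and 24 with the replicate number as a block, and 56 to 480 when 1 array was left out. Of the retinoid genes 1 was called. The count was 0 without the filter and 0 with the replicate block (limma, unadjusted p under 0.05 for 4 and 5 genes), 2 with the trend (Crabp1 and Cyp26b1) and 2 with array weights (Crabp1 and Stra6), and 0 to 2 without 1 array. Of the other pathway genes 1 was called, 0 without the filter and 0 with the replicate block (limma, unadjusted p under 0.05 for 11 and 9), 2 with the trend, 4 with array weights (Rec8, Rarb, Ttr and Cd36), and 0 to 2 without 1 array. Under the replicate block Crabp1 had adjusted p = 0.0981 and Rec8 0.109. The replicate number was also the slide column. Same-numbered arrays correlated by -0.04, 0.17 and 0.09 in their deviations from the strain means, so the numbers were not taken to pair the arrays. Of 144 values for the 8 tested retinoid genes under the alternatives, 134 kept direction and side of the threshold, 6 lost the call of Crabp1, 3 gained a call and 1 changed sign. Rarg ran from -0.061 to 0.015 and Rxrg from -0.125 to 0.022 when 1 array was left out, Rxrg was 0.223 as the mean of its probes, and Cyp3a11 was 0.093 with normexp. The cause of these changes was not tested. Dim probes (Lrat, Rarb, Ttr, Cyp3a11) are limited by signal over background.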

Other observations

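Among the B6 testes, the array with the most Stra6 signal had the least Cyp26b1 and Aldh1a1, but the most Aldh1a2 (3.1). B6 array 1 held the highest Stra6 (-0.40) and Rarb (-2.99) and the lowest Cyp26b1 (5.02) and Aldh1a1 (7.52) of the 3 B6 arrays. B6 array 3 held the lowest Stra6 (-1.43) and Rarb (-3.63) and the highest Cyp26b1 (5.47) and Aldh1a1 (7.66), and was the B6 array nearest to B6.MRLc1 for each of these 4 genes. For Crabp1 the same array was the farthest from B6.MRLc1 (0.27), and for Rbp4 too (2.11). The spread within B6 was larger than within B6.MRLc1 for all 9 genes, which was not tested. The SD was 0.52 against 0.04 for Stra6, 0.24 against 0.08 for Cyp26b1 and 0.07 against 0.03 for Aldh1a1. For Crabp1 it was 0.12 against 0.05, for Rbp4 0.16 against 0.10 and for dim Lrat 0.87 against 0.43. The SDs were close for Aldh1a2 (0.105 against 0.099), Crabp2 (0.083 against 0.071) and Rarg (0.07 against 0.063). Peritubular myoid scores were -0.05, -0.04 and -0.06 on the B6 arrays and Sertoli scores -0.15, -0.01 and 0.04, whereas adipocyte scores were -1.01, -0.19 and -0.23.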
